A study of Mus musculus with 2 samples.

Results

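The Mir23, Mir27 and Mir24 genes form a pair of paralogous microRNA clusters, of which 6 loci had a row among the 1973 microRNA loci counted in embryonic mouse hindbrain. They were chosen by gene identity and not by a rule on their values, but with earlier results of these data known. All 6 were found by matching the stable part of the Ensembl identifier to GENCODE M21. Mir23a, Mir27a and Mir24-2 lie on chromosome 8. Mir23b, Mir27b and Mir3074-1 lie on chromosome 13. Mir3074-1 overlaps Mir24-1 on the other strand, and Mir24-1 has no row of its own, so its reads were taken from the opposite-strand column of the Mir3074-1 row. The RNA came from hindbrain of B6NCrl mice at embryonic day 14.5 and was limited to sizes below 30 nucleotides. There was 1 group of 2 libraries, replicate 2 collected on 30 July 2014 and replicate 1 on 24 July 2014. No treatment, genotype or second tissue was sampled. The labels describe each sample both as a single hindbrain and as pooled male and female, and both carry the same donor label. Therefore n = 2 may not stand for separate animals, and every SD covers only the spread between these libraries. The p-values of the binomial test used below cover counting error alone and not that spread. Those of the exact test in edgeR add a spread estimated from these same libraries.

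A microRNA locus is transcribed as a long precursor from which a hairpin is cut, and Dicer then releases a short duplex whose arms are named 5p and 3p. The mature strand guides Argonaute to messenger RNAs that pair with its seed, bases 2 to 8, and represses them. Hairpins of a cluster are usually cut from the same primary transcript, and the mature microRNAs of the miR-23, miR-27 and miR-24 families have different seeds and so different target sets. These families are known for roles in blood vessel growth, in blood cell formation and in muscle, and are also expressed in brain.

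The sequences are shown first because the families could be counted only through the bases that differ between the clusters. All sequences are from RefSeq on GRCm38.p6, which held hairpins for all 7 loci, and each runs 5′ to 3′ with the seed in capitals. The first group gives the 3p arms, on the plus strand of chromosome 8 for miR-23a-3p and miR-27a-3p, of chromosome 13 for miR-27b-3p, and of both for miR-24-3p.
miR-23a-3p: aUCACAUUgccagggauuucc
miR-27a-3p: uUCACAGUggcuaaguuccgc
miR-27b-3p: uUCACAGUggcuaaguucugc
miR-24-3p: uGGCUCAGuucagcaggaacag
The miR-27 products share the seed UCACAGU and differ at 1 of 21 bases, U19C with the base of miR-27b-3p first and positions counted from the 5′ end. A read that starts at the annotated first base therefore needed 19 bases before it matched 1 hairpin of the 1005 in the table, for miR-27a-3p and miR-27b-3p alike. The same length, 19 bases, was needed for miR-23a-3p. miR-24-3p was contained whole in the hairpins of both Mir24-1 and Mir24-2, so no read within it could be placed at 1 locus.

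The Mir23 hairpins are shown in full, with the longest run they share in capitals.
Mir23b: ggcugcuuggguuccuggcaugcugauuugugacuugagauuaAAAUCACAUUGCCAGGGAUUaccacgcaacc
Mir23a: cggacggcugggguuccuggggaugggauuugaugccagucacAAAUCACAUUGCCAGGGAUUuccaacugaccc
The shared run of 20 bases covers the start of miR-23a-3p and its whole seed, so both Mir23 loci carry the seed UCACAUU. Aligned over their length, the Mir23 hairpins were identical at 59 of 69 aligned bases (85.5%) and the Mir27 hairpins at 57 of 67 (85.1%), also with a longest shared run of 20 bases. The Mir24 hairpins were identical at 60 of 65 aligned bases (92.3%), and their longest shared run, 28 bases, took in miR-24-3p.

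The arms below are shown because those of Mir24-2 and Mir24-1 differ between the copies and that of Mir3074-1 does not. The tables give 1 count per locus and strand, so how much each arm contributed is unknown.
miR-24-2-5p: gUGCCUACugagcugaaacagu
miR-24-1-5p: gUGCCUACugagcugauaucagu
miR-3074-5p: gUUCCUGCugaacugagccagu
The 5p arms of Mir24-2 and Mir24-1 share the seed UGCCUAC and stay alike until a read reaches 17 bases. miR-3074-5p, made from the strand opposite to Mir24-1, was contained whole in the hairpins of Mir3074-1 and Mir3074-2. Both of its source hairpins are therefore indistinguishable in that arm. In the counts below, reads with several positions are missing, and they made up 34.3% of all reads of replicate 2 and 33.9% of replicate 1.

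The chromosome 8 cluster spans 404 bases on the plus strand of GRCm38, with Mir23a at chr8:84208518-84208592, Mir27a at chr8:84208672-84208758 and Mir24-2 at chr8:84208815-84208921. The gaps between these hairpins are 79 and 56 bases. Mir23a and Mir27a overlap no other annotated gene, and the last 2 bases of Mir24-2 overlap the exon of the long non-coding gene Gm26532. The chromosome 13 cluster spans 792 bases, with Mir23b at chr13:63300484-63300557, Mir27b at chr13:63300712-63300784 and Mir24-1 at chr13:63301208-63301275, all on the plus strand, and gaps of 154 and 423 bases. Mir3074-1 lies at chr13:63301199-63301283 on the minus strand. All 4 loci lie within the protein-coding gene Aopep (2010111I01Rik in GENCODE), which encodes an aminopeptidase, and in an intron of Fancc, a Fanconi anaemia gene on the minus strand. Mir23b was intronic in all 9 Aopep transcripts that run across it. Mir27b overlapped an exon in 1 of 9, and Mir24-1 in 4 of 11, and 0 of these were protein-coding transcripts.

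**Figure D1:**
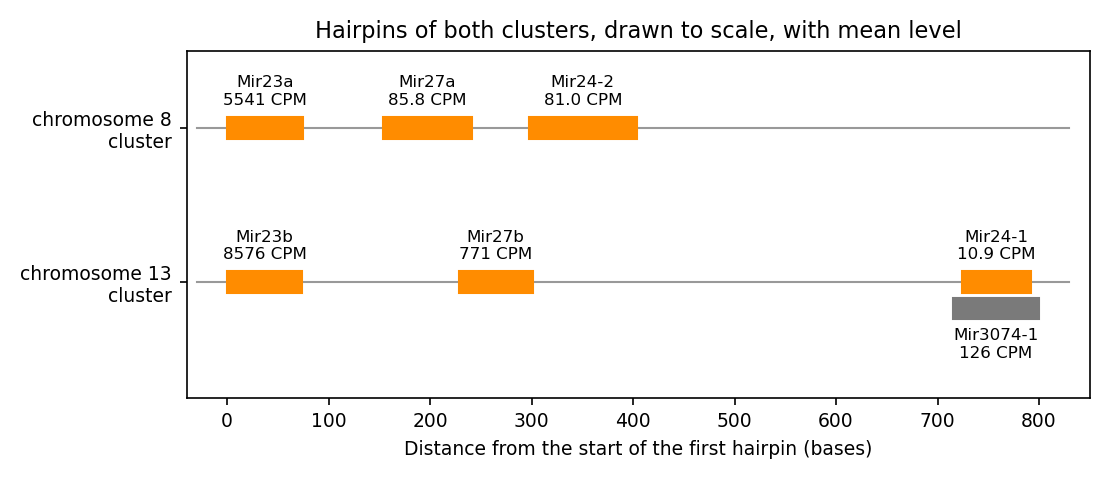
Hairpins of the chromosome 8 cluster (upper) and the chromosome 13 cluster (lower) against the distance in bases from the start of the first hairpin, with the mean CPM of both libraries. Orange boxes are on the plus strand and the grey box, Mir3074-1, is on the minus strand. The first hairpin of each cluster, Mir23a with 5541 CPM and Mir23b with 8576 CPM, had the highest level in assigned counts. These counts leave out reads of the mature arm that both clusters share whole.

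The tables held 6667238 gene-strand counts on microRNA loci in replicate 2 and 5826676 in replicate 1, where the gene strand is the strand column with 97.8% and 98.0% of the counts on loci. Levels are given in CPM, counts per 1000000 of these counts, and are not divided by length because mature microRNAs have nearly the same length. Small RNA libraries capture some sequences better than others, which adds to differences in level between loci and was not measured. The hindbrain Hox microRNAs Mir10a and Mir10b summed to 140148 in replicate 2 and 179036 in replicate 1, in CPM. The 5 muscle microRNAs with a row summed to 16.5 and 15.4 CPM, with Mir1a-1 and Mir133a-1 at 0. Mir1a and Mir133a have further copies, and reads with several positions are left out. These low counts therefore do not show that muscle RNA was absent. The neuronal list of 12 loci had 33474 and 29307 CPM. It was led by Mir149 with 15366 and 13165 CPM and Mir137 with 10645 and 9697 CPM. The highest of its Mir124a loci, Mir124a-1, had only 7.95 and 7.55 CPM. Mir124a also has several copies, and whether left-out reads account for this low level was not tested. Intervals are exact 95% intervals of the counts; they and the floor hold counting error alone, as reads were not collapsed by molecular identifiers. The tissue is a mixture, so a lower level can mean fewer cells of a type or less RNA per cell, and these cannot be told apart.

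The members differed widely in level, and both Mir23 loci were far above the others. Mir23b had 60934 counts in replicate 2 and 46692 in replicate 1, or 9139 and 8013 CPM. Mir23a had 37720 and 31609 counts, or 5658 and 5425 CPM. Mir23b ranked 21 and Mir23a ranked 35 among the 1973 loci by mean CPM. Mir27b, of the chromosome 13 cluster, had 5468 and 4208 counts, or 820 and 722 CPM, at rank 104. Mir27a, its paralog on chromosome 8, had 621 and 457 counts, or 93.1 and 78.4 CPM, at rank 222. Mir27b was above Mir27a in both libraries, and their levels did not overlap.

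Mir24-2, the chromosome 8 source of miR-24, had 569 counts in replicate 2 and 447 in replicate 1, or 85.3 and 76.7 CPM. Its rank was 225. These counts leave out miR-24-3p reads that mapped to both clusters, so they do not measure the level of miR-24-3p. Mir3074-1 had 777 and 793 counts, or 116.5 and 136.1 CPM, at rank 206. Likewise, these leave out miR-3074-5p reads that mapped to both Mir3074-1 and Mir3074-2, and do not measure the level of miR-3074-5p. Mir24-1, read from the opposite strand of the Mir3074-1 row, had 91 and 48 counts, or 13.6 and 8.24 CPM, and would rank 299. All 7 loci lay above the floor of 3 counts, which is 0.450 CPM in replicate 2 and 0.515 CPM in replicate 1. The median over the 401 loci with 10 or more counts in both libraries was 129.8 CPM. Mir23b, Mir23a and Mir27b were above that value, and the other members and Mir24-1 had mean levels below it.

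As mean ± SD (n = 2), the order was Mir23b with 8576 ± 796 CPM, Mir23a with 5541 ± 165 CPM, Mir27b with 771 ± 69.2 CPM and Mir3074-1 with 126 ± 13.8 CPM. Mir27a with 85.8 ± 10.4 CPM, Mir24-2 with 81.03 ± 6.10 CPM and Mir24-1 with 10.9 ± 3.83 CPM followed. Mir27a and Mir24-2 overlapped between libraries and did not differ beyond their spread, while every other neighbouring pair in this order had no overlapping values.

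**Figure D2:**
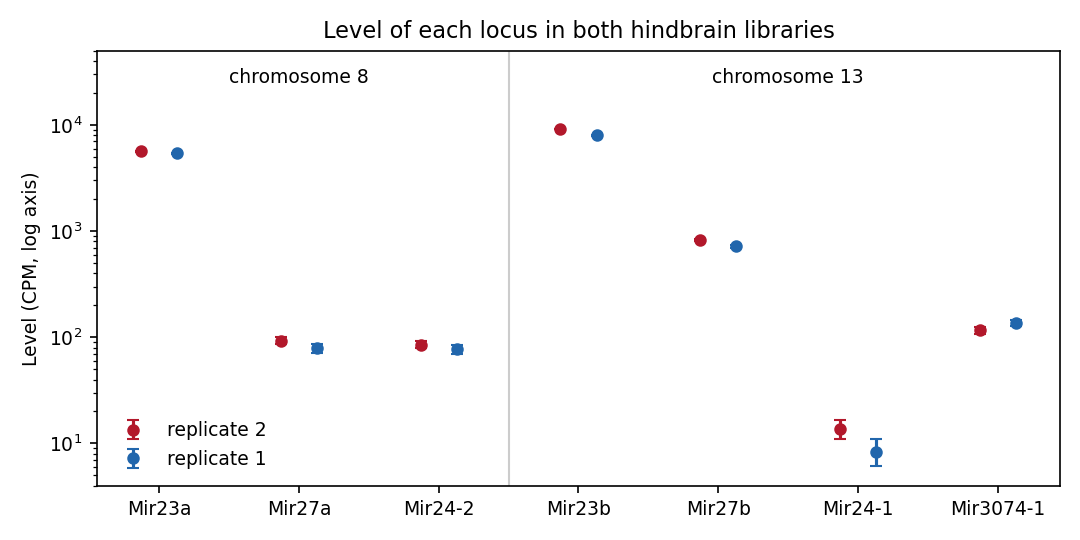
Level in CPM (log axis) of each locus in replicate 2 (red) and replicate 1 (blue), with exact 95% Poisson intervals of the counts. The levels lie between 8.24 CPM for Mir24-1 in replicate 1 and 9139 CPM for Mir23b in replicate 2, and the Mir27a and Mir24-2 values overlap.

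The loci nearest in level over the whole table gave a scale for these values. Mir23b lay between Mir125a, with 8938 CPM in replicate 2 and 8370 in replicate 1, and Mir411 of the imprinted Dlk1-Dio3 cluster, with 8054 and 6242 CPM. Mir23a lay between Mirlet7b with 5782 and 5426 CPM and Mir342 with 5532 and 5424 CPM. Mir27b lay between Mir92-1, a member of the Mir17-92 cluster, with 834 and 807 CPM, and Mir186 with 801 and 641 CPM. The values of these neighbours over both libraries overlapped those of the members, so no order by mean CPM exceeded the spread between libraries. Taken within each library, the orders held in both, some narrowly, except that Mir23b was above Mir125a in replicate 2. The lower loci had neighbours of mean level 86.4 (Mir673) and 84.6 CPM (Mir6540) for Mir27a, and 83.5 (Mir326) and 80.3 CPM (Mir539) for Mir24-2. For Mir3074-1 they were 127 (Mir592) and 122 CPM (Mir31), and for Mir24-1 they were 11.2 (Mir5113) and 10.7 CPM (Mir200b). With 2 libraries, no likeness of pattern across samples was computed.

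Within each cluster the first hairpin held nearly all assigned counts, but the second hairpin held a larger part on chromosome 13. The mature arm that Mir24-1 and Mir24-2 share whole could not be placed, so its reads are missing from both cluster totals. The shares are therefore those of assigned counts and do not give the full make-up of either cluster. In the chromosome 8 cluster, Mir23a held 96.9% of the counts in replicate 2 (95% interval 96.8 to 97.1) and 97.2% in replicate 1 (97.0 to 97.4). Mir27a held 1.60% (1.47 to 1.73) and 1.41% (1.28 to 1.54), and Mir24-2 held 1.46% and 1.37%. In the chromosome 13 cluster, Mir23b held 91.6% in each library (91.4 to 91.8 in replicate 2, 91.4 to 91.9 in replicate 1). Mir27b held 8.22% (8.02 to 8.43) and 8.26% (8.02 to 8.50), and Mir24-1 held 0.137% and 0.0942%. The share of Mir27b in its cluster exceeded that of Mir27a in its own in both libraries, and the intervals did not overlap.

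As ratios of counts, Mir23a was 60.7-fold above Mir27a in replicate 2 (95% interval 56.1 to 65.9) and 69.2-fold in replicate 1 (63.1 to 76.0). Mir23b was 11.1-fold above Mir27b in both libraries (10.8 to 11.5 in each). Mir27a and Mir24-2 differed by less than counting error, with a ratio of 1.09 in replicate 2 (0.972 to 1.23) and 1.02 in replicate 1 (0.895 to 1.17).

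The chromosome 13 cluster gave more of the assigned counts than the chromosome 8 cluster. Mir23b, Mir27b and Mir24-1 held 0.997% of the counts on loci in replicate 2 (0.990 to 1.00) and 0.874% in replicate 1 (0.867 to 0.882). Mir23a, Mir27a and Mir24-2 held 0.584% (0.578 to 0.589) and 0.558% (0.552 to 0.564). The means were 0.936% ± 0.0869 for chromosome 13 and 0.571% ± 0.0181 for chromosome 8 (SD, n = 2), and all 7 loci held 1.52% ± 0.104. With 2 libraries, an exact permutation test cannot reach 0.05, so no p-value is given for the difference between clusters.

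The excess of chromosome 13 differed between the families. Of the Mir23 counts, Mir23b gave 61.8% in replicate 2 (61.5 to 62.1) and 59.6% in replicate 1 (59.3 to 60.0), which is a ratio to Mir23a of 1.62 and 1.48. Of the Mir27 counts, Mir27b gave 89.8% (89.0 to 90.6) and 90.2% (89.3 to 91.04), a ratio to Mir27a of 8.81 and 9.21. The Mir27 share was higher than the Mir23 share in both libraries, and their intervals were far apart. The Mir23 share differed between the libraries beyond counting error, while the intervals of the Mir27 share overlapped. A read from the annotated first base of miR-23a-3p, miR-27a-3p or miR-27b-3p enters these shares only with at least 19 bases, since a shorter one matches both paralogs.

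The Mir24 pair went the other way when Mir24-1 was read from the opposite-strand column. Mir24-1 gave 13.8% of the Mir24 counts in replicate 2 (11.2 to 16.7) and 9.70% in replicate 1 (7.24 to 12.7), so Mir24-2 was 6.25-fold and 9.31-fold above it. This result depends on which strand the Mir3074-1 row had in the annotation used for counting, GENCODE M4, whose coordinates were not used here. The strand above is that of M21, where the gene carries a later version number. If the gene-strand column of that row were Mir24-1, its mean share of the pair would be 60.8%, against 11.7% ± 2.89 (SD, n = 2) as read above. The direction of the Mir24 pair, and the levels of Mir24-1 and Mir3074-1 with it, are therefore uncertain.

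**Figure D3:**
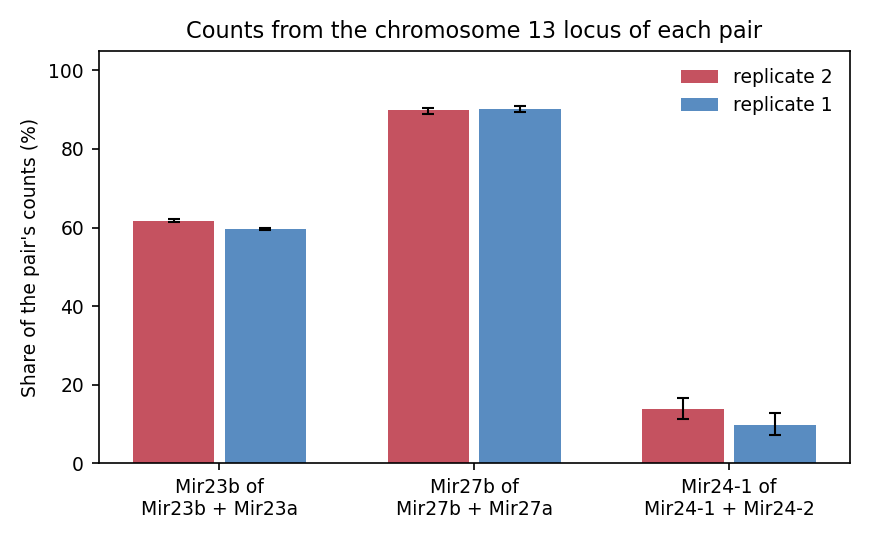
Share in percent of the counts of each paralogous pair that came from the chromosome 13 locus, in replicate 2 (red) and replicate 1 (blue), with exact 95% Clopper-Pearson intervals. The share was 61.8% and 59.6% for Mir23b, 89.8% and 90.2% for Mir27b, and 13.8% and 9.70% for Mir24-1 as read from the opposite-strand column.

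The strand columns of the member rows show how unlike the others the Mir3074-1 row was. Mir23a, Mir27a and Mir23b had 0 opposite-strand counts in both libraries. Mir27b had 2 in replicate 2 and 1 in replicate 1, and Mir24-2, which Mir3074-2 overlaps on the minus strand, had 2 and 4. In the Mir3074-1 row, 10.5% of reads (8.53 to 12.7) were on the opposite strand in replicate 2 and 5.71% (4.24 to 7.50) in replicate 1. The tables held 32 rows with an overlapping microRNA on the other strand, 28 of them with at least 50 reads over both libraries and strands. Of these, 13 had under 1% of reads on the opposite strand and 11 had over 99%. Mir3074-1 was 1 of the 4 between, beside Mir1b, Mir219a-1 and Mir486.

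Both libraries were compared over the whole table to show how far the members moved relative to other loci. The log2 ratio of replicate 2 over replicate 1 was taken after TMM scaling, with 0.5 added to each count, and an exact two-sided binomial test was adjusted by Benjamini-Hochberg over all 499 loci whose counts summed to 10 or more. This test covers counting error only and called 163 of the 499 loci, 32.7%. Higher in replicate 2 were 88 loci (17.6%) and lower were 75 (15.0%). This balance depended on the scaling, with 115 higher and 59 lower for library totals, and 80 higher and 88 lower for DESeq2 size factors. Among the 6 members and Mir24-1, 3 were higher, 1 was lower and 3 were not called. Their median log2 ratio was 0.14, against 0.01 over all loci tested.

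On chromosome 13, Mir23b and Mir27b were higher in replicate 2 by nearly the same amount. The log2 ratio was 0.15 for Mir23b (95% interval 0.13 to 0.16, binomial adjusted p = 9.83e-61) and 0.14 for Mir27b (0.08 to 0.20, adjusted p = 1.02e-05). Mir24-1 had a log2 ratio of 0.68 (0.17 to 1.22, binomial adjusted p = 0.0265) from 91 and 48 counts. Mir3074-1 was lower in replicate 2, with a log2 ratio of -0.27 (-0.41 to -0.12, binomial adjusted p = 0.00107). These assignments rest on the strand of the Mir3074-1 row described above; if its gene-strand column were Mir24-1, the ratio of -0.27 would be that of Mir24-1 and 0.68 that of Mir3074-1.

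On chromosome 8, no locus passed the binomial test. Mir23a had a log2 ratio of 0.02 (-0.0036 to 0.04, adjusted p = 0.231) and Mir24-2 0.11 (-0.07 to 0.29, adjusted p = 0.431). Mir27a had 0.20 (0.03 to 0.38, binomial adjusted p = 0.0639) from 621 and 457 counts. The called Mir27b had a smaller ratio, 0.14 (0.08 to 0.20), from 5468 and 4208 counts. For the Mir27 pair, the calls therefore do not show a difference in ratio between the clusters. Scaled by library totals instead of TMM, Mir23a and Mir27a were called, with log2 ratios of 0.06 and 0.25.

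An exact test in edgeR used the common dispersion of all loci, a biological coefficient of variation of 10.8%. This dispersion was itself estimated from the difference between the same libraries, so few loci can stand out against it, and the test called 7 of the 499 loci (1.40%). This exact test called 0 of the 7 loci here, which does not show that they were equal, and had 1 of them, Mir24-1, at an unadjusted p under 0.05 (p = 0.0464, adjusted p = 0.826). The log2 ratio had an SD of 0.22 among the 282 loci with 100 or more counts in both libraries, and the 5th and 95th percentiles were -0.38 and 0.33. The 6 members lay inside these percentiles, and Mir24-1, with 0.68, lay above the upper one. With 91 and 48 counts, however, Mir24-1 is not among these 282 loci, so the percentiles are no like reference for it. Among all 499 loci tested, 94.8% had a lower log2 ratio than Mir24-1. Each collection day had 1 library, so day and library cannot be told apart.

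**Figure D4:**
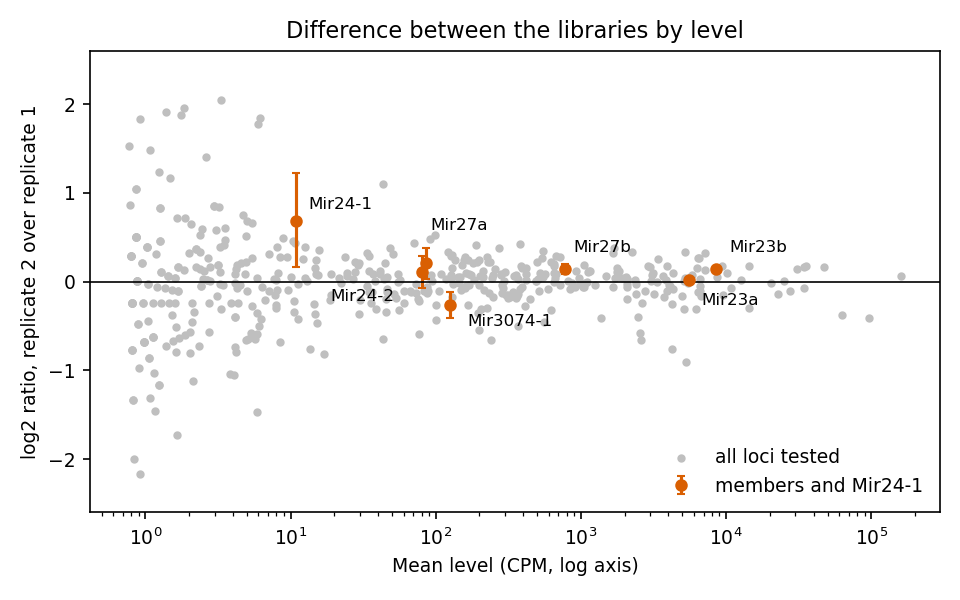
Log2 ratio of replicate 2 over replicate 1 against mean level in CPM (log axis) for the 499 loci tested (grey), with the 6 members and Mir24-1 in orange and their exact 95% binomial intervals. Mir23b and Mir27b lie at 0.15 and 0.14, Mir24-1 at 0.68 from few counts, and Mir3074-1 at -0.27.

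Several cell type markers were called by the same binomial test, which called 32.7% of all loci. The endothelial microRNA Mir126a, the 1 of 2 endothelial loci with a row, was at 36687 CPM in replicate 2 and 31783 in replicate 1, with a log2 ratio of 0.16 (exact test with the common dispersion, unadjusted p = 0.458). Of 7 blood loci 5 had a row, all above 0 counts, and they summed to 740 and 587 CPM, with 3 higher in replicate 2, 0 lower and a median log2 ratio of 0.30. Of these, Mir144 (log2 ratio 1.09) was also called by the exact test with the common dispersion (adjusted p = 0.00857), and Mir451a and Mir150 were not. The blood sum leaves out Mir142, which has no row and overlaps Mir142b on the other strand. In the Mir142b row, the opposite-strand column held 2175 counts in replicate 2 and 1502 in replicate 1. Mir451a, the highest locus in the sum, had 2094 and 1362. The 8 mural and mesenchymal loci summed to 11770 and 11084 CPM, with Mir145b at 0. Of the 6 tested, 2 were higher and 2 lower, with a median of -0.12, and the leading locus Mir143 had a log2 ratio of 0.03. Of 12 neuronal loci 5 were higher and 1 lower, with a median of 0.07, and the leading locus Mir149 had 0.18. Both hindbrain Hox loci were lower in replicate 2, Mir10a with a log2 ratio of -0.41 and a list median of -0.39. Of the 2 progenitor loci with a row 1 was lower, with a median of -0.10. Of the 3 oligodendrocyte loci 1 was higher and 1 lower, with a median of -0.07 and -0.24 for the leading locus Mir219a-2. The single muscle locus tested, Mir206, was not called. The part of these cell types in the ratios of Mir23b and Mir27b was not tested.

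The seed of miR-27 is nearly that of miR-128, a neuronal microRNA, whose mature sequence from Mir128-1 on chromosome 1 is shown for that reason, with its seed in capitals.
miR-128-3p: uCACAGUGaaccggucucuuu
miR-27a-3p and miR-128-3p share a run of 8 bases, at bases 2 to 9 of miR-27a-3p and bases 1 to 8 of miR-128-3p. Mir128-1 was at 1900 CPM in replicate 2 and 1661 in replicate 1, and Mir128-2 at 1144 and 972 CPM. Together the Mir128 loci had 3.33 times the level of the Mir27 loci in replicate 2 and 3.29 times in replicate 1. Reads with several positions are left out of both sums, and whether miR-128-3p could be placed at 1 locus was not examined. The ratio therefore compares assigned counts of loci and does not measure the mature microRNAs. Mir128-1 had a log2 ratio of 0.15 and Mir128-2 of 0.19, near that of Mir27b. Mir126a with 0.16 and Mir149 with 0.18 also lay near it, so this nearness is not particular to the Mir128 loci. The seed of miR-24-3p, GGCUCAG, also stands in miR-5124b, miR-6369, miR-6410 and miR-6413 of the RefSeq table, whose loci all had 0 counts in both libraries, under the floor of 0.450 CPM in replicate 2 and 0.515 CPM in replicate 1.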

How the data were processed

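The authors deposited raw read counts per microRNA locus for 2 small RNA libraries, with a column for both strands and 1 for each strand. Per the deposited file lists, the build was mm10 and the annotation GENCODE M4. No aligner or counter is named there, and both are not given in the sources used for this text. Multimapping reads were not assigned to loci, and the 4 rows of unassigned reads stayed out of library sizes. They held 15.9% unmapped reads and 2.26% outside the loci of 14348369 reads in replicate 2, and 13.8% and 1.99% of 11804816 in replicate 1. The libraries differed by more than sampling noise (chi-square 98.2 per degree of freedom) and were kept apart.

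Symbols and positions are those of GENCODE M21 for the same genome build (1894 of 1973 loci matched), and sequences from RefSeq. The shortest read matching 1 hairpin was sought among the 1005 hairpins of that table, on the hairpin strand and not in the whole genome. Lists, members and the naming rule (the members, Mir24-1, their neighbours in level, loci sharing a seed, Mir128, marker lists) were chosen with earlier results of these data known. With 1 library per collection day a quasi-likelihood fit leaves no residual degrees of freedom, so an exact binomial test at 0.05 was used. The common dispersion of edgeR and the size factors of DESeq2 were among the alternatives. Scripts were tested on simulated data. Tools were edgeR 4.0.16 and DESeq2 1.42.0 under R 4.3.3, and scipy 1.17.1, pandas 2.3.3 and numpy 2.4.6 under Python 3.11.15, with plots by matplotlib 3.10.9.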

Additional observations from a re-analysis of the deposited data

Results flagged for a closer look

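Mir24-2 had 4 opposite-strand counts in replicate 1, above the floor of 3 counts, in a column that no comparison of this locus used. Replicate 2 had 2. Mir3074-2 overlaps Mir24-2 on that strand and had no row of its own.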

How the results depend on the processing

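With all reads as the denominator, the chromosome 8 cluster held 0.273% and the chromosome 13 cluster 0.448%; without the most abundant locus, Mir99a, in the total they held 0.680% and 1.12%. Leaving out each replicate gave 0.558 to 0.584% for chromosome 8, 0.874 to 0.997% for chromosome 13, 59.6 to 61.8% for Mir23b, 89.8 to 90.2% for Mir27b and 9.70 to 13.8% for Mir24-1. Reading the gene-strand column of the Mir3074-1 row as Mir24-1, chosen after the data were seen, gave it 60.8% of the Mir24 pair, and the cause of the strand split was not tested. With library totals the log2 ratios of Mir23a (0.061) and Mir27a (0.25) passed the binomial test. With DESeq2 size factors that of Mir23a turned to -3.7e-06, at an adjusted p of 1. With edgeR's common dispersion, Mir23b (0.15), Mir27b (0.14), Mir24-1 (0.68) and Mir3074-1 (-0.27) no longer passed, and 4 loci were higher and 3 lower over the whole table, because that test adds a spread estimated from the same libraries. Over the whole table, 115 loci were higher and 59 lower with library totals, 80 and 88 with DESeq2 size factors, and 82 and 88 with the upper quartile, so the balance turned. The other 47 values for shares and ratios kept direction and call, or moved by less than the spread. Levels of single loci moved beyond it in 13 cases, each with another denominator, and stayed within it in 22. Both the 47 and the 22 include values with a replicate left out. Such a value always lies within the SD of the mean of both libraries. These cases could not come out otherwise and do not test how stable the results are. Depth limits Mir24-1 most, with 91 and 48 counts.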
